A study of Mus musculus with 8 samples.

Results

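The 33 genes described here encode the protein folding machinery of the endoplasmic reticulum (ER) and the sensors, transcription factors and targets of the unfolded protein response. They were taken as a list of gene symbols by known role, 33 of the 32285 genes in the expression matrices. By role, 11 are chaperones and co-chaperones, 4 are disulfide isomerases or the oxidase that serves them, 6 are stress sensors and transcription factors, 7 act in ER-associated degradation and 5 belong to the translocon. All 33 were found by symbol, with Ero1a under its older symbol Ero1l, and all 33 had UMIs. Derl3 (120 UMIs) and Ern1 (797 UMIs) were sparse over the whole experiment, so their values carry little weight.

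Proteins that enter the secretory pathway pass the translocon into the ER lumen, where chaperones such as HSPA5 (BiP), disulfide isomerases and the lectins calnexin and calreticulin fold them. Unfolded proteins activate the sensors IRE1 (Ern1), PERK (Eif2ak3) and ATF6, which act through spliced XBP1, ATF4 and cleaved ATF6 to raise chaperones, degradation factors and, under lasting stress, the factor CHOP (Ddit3). The glycan that calnexin and calreticulin read is built on a lipid carrier before transfer to the nascent protein, and its loss is a classical trigger of the response. Activated CD8+ T cells make large amounts of secreted effector proteins.

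The cells were OT-I CD8+ T cells from Cas9 knock-in mice, transduced with a CROP-seq guide library and sorted as CD90.1+ cells from orthotopic KPC_OVA pancreatic tumours 7 days after transfer. The KPC_OVA line expresses ovalbumin, the antigen of OT-I cells, and the recipients also carried Cas9 and kept their own immune cells, which lack the sort marker. Recipients were given anti-PD-1 (3 libraries) or IgG control antibody (1 library) from the day of transfer. Every group, sgNT controls included, carried Cas9 and a guide vector, so no untransduced cells served as a baseline. Anti-PD-1 replicates 1 and 2 share a name stem in the labels, so the spread between libraries may be partly technical.

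Of 56359 barcodes, 23059 held a single guide and passed the filters, between 2535 and 11495 per library, with 48182760 to 88543446 UMIs per library. Median depth per cell ranged from 6329 UMIs in IgG to 16829 UMIs in anti-PD-1 replicate 1. All 7 CD8 T cell markers were detected in each library, and 265 cells held at least 10 UMIs of other cell types' markers. B and plasma cell markers summed to between 57.6 and 253 CPM, highest in anti-PD-1 replicate 3, where Igkc reached 127 CPM. Kept barcodes shared by a pair of libraries numbered between 3 and 18. Values below are UMI counts summed over cells and scaled by the UMI total of those cells (CPM), and intervals and floors would cover counting error only.

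The promoters of several of these genes hold the ER stress response element (ERSE, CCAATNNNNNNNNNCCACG), a site through which ATF6 and XBP1 are known to act. RefSeq promoters (GRCm38.p6, 250 bases before to 50 after the start of the gene) matched 27 of the 33 genes. Searched on both strands, ERSE was present for 9 of these 27 genes (33.3%) against 0.119% of all 32851 promoters, and ERSE-II (ATTGG and CCACG with 1 base between them) for 2 (7.41%) against 0.0365%. The member shares count genes and the background counts promoters. The genes were listed by role in this response, so the shares are a description. The 9 were Calr, Canx, Creld2, Derl3, Dnajc3, Hsp90b1, Hspa5, Pdia6 and Syvn1, and the 2 were Dnajb11 and Herpud1. The UPRE letters TGACGTGG, whose last 5 bases are also the reverse complement of the end of ERSE, and the CARE letters TGATGCAAT were in none of the 27 and in 0.676% and 0.192% of all promoters. The 250 bases upstream of 4 members that recur in the results are shown 5′ to 3′ on the gene's strand, with the fixed letters of ERSE in capitals (read as CGTGG and ATTGG where the match is on the opposite strand). In Hspa5, the luminal HSP70, the match began 65 bases before the start of the gene, and Hsp90b1 held 2 matches. A match describes the sequence and was not measured as a bound site.
Hspa5 (chr2:34771840-34772089, plus strand): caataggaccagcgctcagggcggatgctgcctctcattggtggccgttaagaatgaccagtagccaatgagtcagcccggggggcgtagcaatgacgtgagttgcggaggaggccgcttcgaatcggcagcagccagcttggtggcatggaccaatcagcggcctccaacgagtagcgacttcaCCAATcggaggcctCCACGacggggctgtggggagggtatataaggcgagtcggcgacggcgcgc
Hsp90b1 (chr10:86705445-86705694, minus strand): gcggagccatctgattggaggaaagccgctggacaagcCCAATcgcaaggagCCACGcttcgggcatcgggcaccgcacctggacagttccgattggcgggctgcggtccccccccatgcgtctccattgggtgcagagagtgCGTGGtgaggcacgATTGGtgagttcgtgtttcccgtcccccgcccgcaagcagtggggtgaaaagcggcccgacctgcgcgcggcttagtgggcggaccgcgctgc
Pdia6 (chr12:17266339-17266588, plus strand): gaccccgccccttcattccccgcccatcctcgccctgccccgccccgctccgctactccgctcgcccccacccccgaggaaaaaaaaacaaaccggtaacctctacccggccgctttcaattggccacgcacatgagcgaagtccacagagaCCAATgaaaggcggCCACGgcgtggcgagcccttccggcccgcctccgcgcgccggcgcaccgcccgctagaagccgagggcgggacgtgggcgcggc
Calr (chr8:84846932-84847181, minus strand): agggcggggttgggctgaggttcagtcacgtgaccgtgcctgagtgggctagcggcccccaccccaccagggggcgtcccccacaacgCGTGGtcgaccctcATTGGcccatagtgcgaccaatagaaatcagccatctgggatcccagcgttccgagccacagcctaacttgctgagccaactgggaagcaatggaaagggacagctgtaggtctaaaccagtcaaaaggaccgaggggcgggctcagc

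The guide library held 5 targets taken here as the core of the N-glycan pathway. The first question was whether cells with those guides differed in ER folding genes from cells with nontargeting guides (sgNT) of the same library. Alg12 and Dpm2 act on the lipid-linked glycan before transfer: ALG12 is a mannosyltransferase of the ER, and DPM2 is a subunit of the synthase of dolichol-phosphate mannose, the mannose donor that GPI anchors also use. Man1b1 (an ER mannosidase), Man1a2 (a Golgi mannosidase) and Mgat2 (a Golgi GlcNAc transferase) act on the glycan after transfer to protein. The guides against the first pair, on which the results turn, are printed 5′ to 3′ with the GRCm38 position that each matched in GENCODE exons. All 6 lay in coding sequence next to an NGG motif, Alg12 guide 3 in that of 1 annotated transcript and the other guides in that of 2. Those against Dpm2 overlapped 1 exon within a short stretch, so they share a target site region and are not independent sites.
Alg12 guide 1 (chr15:88814502-88814521, minus strand, exon 5): gtaccaaagaagactgacgg
Alg12 guide 2 (chr15:88815892-88815911, plus strand, exon 3): aagcgagagcacataaacca
Alg12 guide 3 (chr15:88811487-88811506, plus strand, exon 7): gggctgagtagaaataccac
Dpm2 guide 1 (chr2:32571241-32571260, minus strand, exon 2): tgatcaagctaacggcgaca
Dpm2 guide 2 (chr2:32571262-32571281, plus strand, exon 2): cttcacctactacaccactt
Dpm2 guide 3 (chr2:32571209-32571228, plus strand, exon 2): accgggacagaccaagcagt

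Cells with Alg12 or Dpm2 guides held more transcripts of named luminal folding genes than sgNT cells of the same library, whereas no member passed the test with Man1b1, Man1a2 or Mgat2 guides. With Alg12 guides (229 cells), Sdf2l1, Pdia6 and Sec61b rose. With Dpm2 guides (147 cells), Sdf2l1, Pdia3 and Pdia6 rose. Counts were summed per target and library and fitted with edgeR's quasi-likelihood test, library as a block, over 9980 genes. Of all genes, 0.0401% rose with Alg12 guides (4 genes, of which 3 were members and the other was Rpl10) and 0.0301% with Dpm2 guides (3 genes, all members). Both contrasts share the sgNT sums, so they are not independent of each other.

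Sdf2l1, a component of the luminal HSP70 complex, measured 128, 146, 98.5 and 98.6 CPM in the sgNT cells of anti-PD-1 replicates 1, 2 and 3 and IgG. With Alg12 guides it measured 218, 229, 144 and 140 CPM in the same order. With Dpm2 guides it measured 193, 207 and 159 CPM in anti-PD-1 replicates 2 and 3 and IgG, since anti-PD-1 replicate 1 held only 8 such cells and gave no sum. Each sum was above its own library's sgNT cells, in 4 of 4 and 3 of 3 libraries. The log2 fold change was 0.63 ± 0.11 (SE) for Alg12 (edgeR adjusted p = 0.00048) and 0.77 ± 0.13 for Dpm2 (edgeR adjusted p = 6.6e-05).

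Pdia6, a disulfide isomerase that binds HSPA5, measured 201, 216, 194 and 182 CPM in sgNT cells. With Alg12 guides it measured 330, 379, 303 and 249 CPM, and with Dpm2 guides 355, 338 and 270 CPM in the last 3 of these libraries. The lowest value with either guide set lay above the highest sgNT value. The log2 fold change was 0.68 ± 0.13 with Alg12 guides (edgeR adjusted p = 0.00076) and 0.68 ± 0.14 with Dpm2 guides (edgeR adjusted p = 0.0078).

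Pdia3, the disulfide isomerase that works with calnexin and calreticulin on glycoproteins, measured 337, 365, 461 and 414 CPM in sgNT cells and 561, 628 and 554 CPM with Dpm2 guides in the last 3 libraries. Its log2 fold change with Dpm2 guides was 0.49 ± 0.09 (edgeR adjusted p = 0.00037). With Alg12 guides it measured 407, 476, 572 and 521 CPM, higher in 4 of 4 libraries, at 0.33 ± 0.08, which missed the threshold (edgeR adjusted p = 0.058). Sec61b, a subunit of the protein-conducting channel, measured 624, 668, 615 and 603 CPM in sgNT cells and 784, 872, 782 and 716 CPM with Alg12 guides, a log2 fold change of 0.34 ± 0.07 (edgeR adjusted p = 0.0016). Its value with Dpm2 guides was 0.20 ± 0.07 (edgeR adjusted p = 0.43).

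Other chaperones lay on the same side of sgNT without passing the test. Hspa5, the luminal HSP70, measured 449, 496, 510 and 506 CPM in sgNT cells, 615, 741, 720 and 686 CPM with Alg12 guides, and 528, 743 and 687 CPM with Dpm2 guides. Its log2 fold changes were 0.50 ± 0.12 and 0.39 ± 0.14 (edgeR adjusted p = 0.0996 and 0.40), and in anti-PD-1 replicate 2 the Dpm2 value was within 0.09 of sgNT on the log2 scale. Manf, a secreted ER stress-induced factor, had 0.42 ± 0.10 with Alg12 guides and 0.48 ± 0.11 with Dpm2 guides (edgeR adjusted p = 0.058 for each). Hsp90b1, the luminal HSP90, had 0.43 ± 0.10 with Dpm2 guides (edgeR adjusted p = 0.062) and 0.26 ± 0.09 with Alg12 guides (edgeR adjusted p = 0.74).

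**Figure D1:**
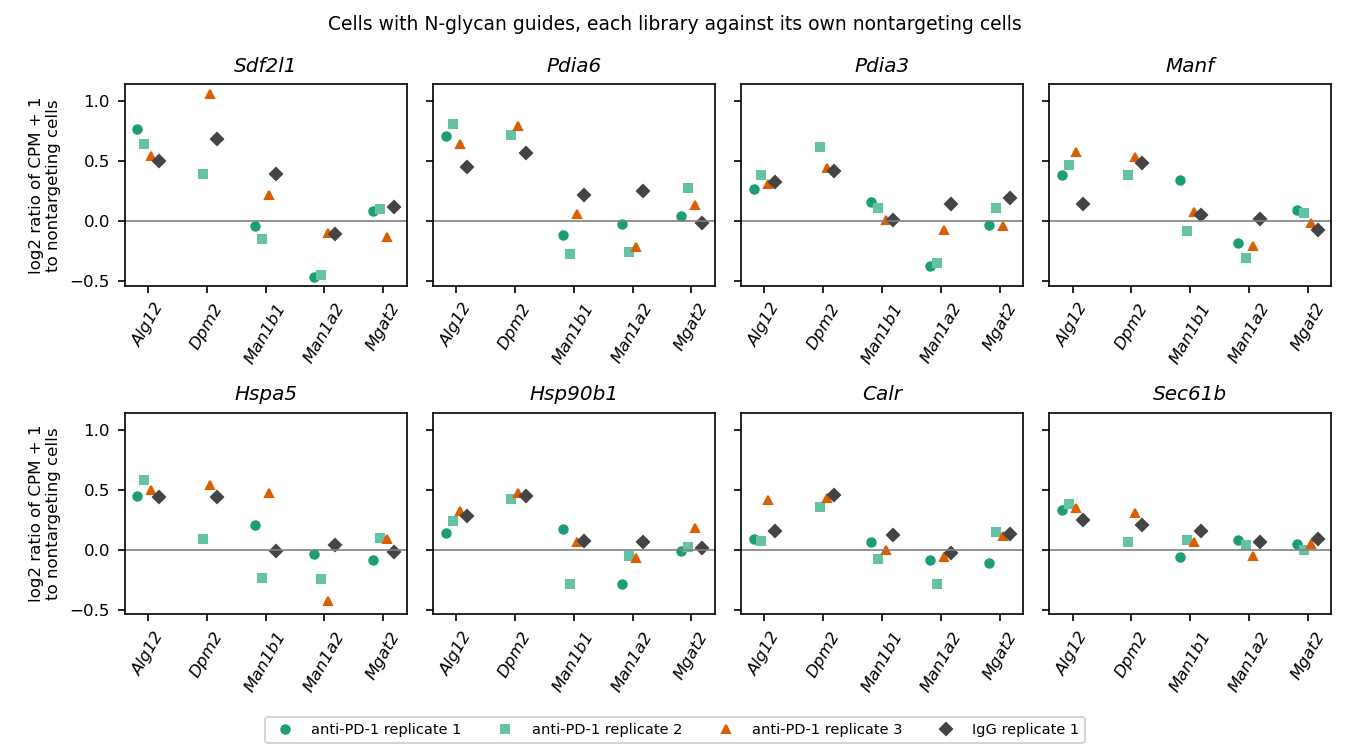
Log2 ratio of CPM (plus 1 CPM) in cells with each N-glycan guide set to sgNT cells of the same library, for 8 of the genes, 1 point per library. Each Alg12 and Dpm2 point lies above 0 for these genes, from 0.07 to 1.06. Points of the other targets lie on both sides of 0, with those of Man1a2 mostly below.

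By role, all 11 chaperones and co-chaperones had positive log2 fold changes with each of the 2 guide sets, with medians of 0.28 (Alg12) and 0.39 (Dpm2) against -0.003 and -0.02 over all genes tested. The 4 isomerase and oxidase genes had medians of 0.32 and 0.46, with Ero1a, the oxidase, at -0.13 ± 0.22 and -0.01 ± 0.25. The 6 sensors and transcription factors had medians of 0.13 and 0.07, and none passed the test. Among the degradation genes, Herpud1, which organises the degradation complex, had 0.54 ± 0.18 and 0.43 ± 0.22, without passing. Over all 33, the median was 0.26 with Alg12 and 0.23 with Dpm2, 29 of 33 values were positive in each, and 17 and 10 members had an unadjusted p under 0.05, as did 4.68% and 7.28% of all genes. Of the other pathway genes (ATF4 targets, other folding and degradation factors, the N-glycan pathway, other translocation factors and regulators, and heat shock genes), none passed the test with either guide set.

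**Figure D2:**
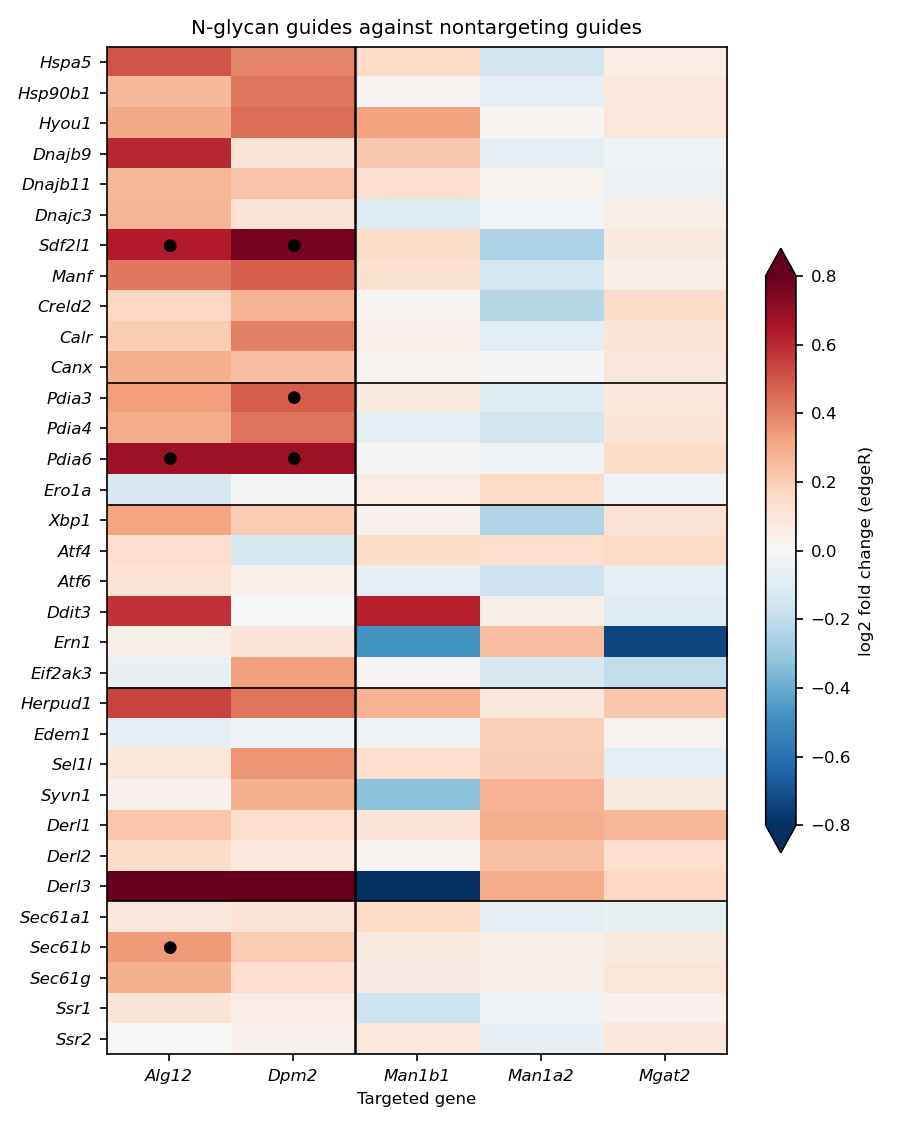
Log2 fold change (edgeR) of each of the 33 genes (rows, grouped by role) in cells with guides against 5 N-glycan genes (columns) relative to sgNT cells. Black dots mark the 6 values past the adjusted threshold, all with Alg12 or Dpm2 guides, and colour is capped at 0.8, which only the sparse Derl3 exceeds.

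With Man1b1, Man1a2 and Mgat2 guides (203, 272 and 419 cells), the medians over the 33 genes were 0.06, -0.02 and 0.08, and 25, 15 and 24 of 33 values were positive (10, 2 and 9 of the 11 chaperones and co-chaperones), with 0 of 33 called in each by edgeR and 1, 2 and 1 at an unadjusted p under 0.05 (4.26%, 4.32% and 3.18% of all genes). Of all genes, 0.01% were called in each of these contrasts, and the gene called with Man1a2 guides was Man1a2 itself, at a log2 fold change of -0.79 ± 0.17 (edgeR adjusted p = 0.041). Sdf2l1 had log2 fold changes of 0.15 ± 0.13, -0.25 ± 0.13 and 0.08 ± 0.11 with Man1b1, Man1a2 and Mgat2 guides. The transcripts of the other targets give little check on editing: Dpm2 changed by -0.10 ± 0.19 with its own guides, Man1b1 by -0.60 ± 0.45, Mgat2 by 0.08 ± 0.12, and Alg12 was too low to be tested. Alg12 measured 5.56, 0, 7.14 and 7.78 CPM with its own guides (anti-PD-1 replicates 1 to 3, then IgG). In sgNT cells it measured 3.09, 3.65, 4.53 and 3.52 CPM, so it was higher with its guides in 3 of 4 libraries. Cas9 cuts need not lower transcript levels.

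The difference between the 2 kinds of target was then tested directly, as the mean of Alg12 and Dpm2 minus the mean of Man1b1, Man1a2 and Mgat2, a contrast in which the sgNT sums cancel. This grouping follows the step of the enzymes, but it was made after the values for each target were seen, so its p-values are not independent support. Of the 33 genes 7 were called, all higher for Alg12 and Dpm2, against 0.13% of all genes in either direction (13 genes). Sdf2l1 differed by 0.71 ± 0.09 on the log2 scale (edgeR adjusted p = 9.7e-10), Pdia6 by 0.64 ± 0.10 (edgeR adjusted p = 5.8e-07) and Pdia3 by 0.39 ± 0.06 (edgeR adjusted p = 5.2e-07). Manf (0.44 ± 0.07), Hsp90b1 (0.33 ± 0.07), Hspa5 (0.42 ± 0.09) and Sec61b (0.21 ± 0.05) completed the 7, with edgeR adjusted p of 2.6e-05, 0.0018, 0.0051 and 0.018. Calr, the soluble lectin chaperone, lay just outside at 0.28 ± 0.07 (edgeR adjusted p = 0.056), as did the disulfide isomerase Pdia4 at 0.41 ± 0.10 (edgeR adjusted p = 0.079). The median over the 33 genes was 0.23, against -0.01 over all genes tested. With Man1a2 guides, the median log2 ratio over libraries was -0.28 for Sdf2l1, -0.21 for Pdia3 and -0.19 for Manf, which widens these differences. Sec61b lay above sgNT with Man1a2 guides (0.05), and Man1b1 and Mgat2 guides lay above sgNT for all 4 of these genes. In contrast, the mean of all 5 N-glycan targets against sgNT called 0 of 33 genes by edgeR, against 0.01% of all genes, with 10 at an unadjusted p under 0.05 (3.36% of all genes). With only the N-glycan and sgNT sums in the fit, edgeR called 0 and DESeq2 2.

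GPI anchors, which tether proteins to the cell surface, are built in the ER from the same mannose donor. Guides against 7 genes of that pathway (Pigc, Pigf, Pigm, Pigp, Pigw, Pigx and Pigz) gave 0 of 33 genes called on average, with 0% of all genes called and 4 of the 33 at an unadjusted p under 0.05, all 4 lower, beside 8.18% of all genes. The median over the 33 genes was -0.09, and that over all genes -0.12. The N-glycan mean minus the GPI mean was positive for 31 of 33 genes and was called for Sec61b (0.24 ± 0.04, edgeR adjusted p = 4.2e-05), Hsp90b1 (0.31 ± 0.06, edgeR adjusted p = 0.00066) and Hspa5 (0.32 ± 0.08, edgeR adjusted p = 0.048), 3 of 33 against 0.14% of all genes. The median of all genes was itself shifted by 0.11 in this contrast, and 4 of the 7 GPI targets held between 41 and 56 cells.

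The number of member tests called differed between fits. Over the 5 targets, 6 of 165 member tests were called by edgeR, against 0.02% of the tests of all genes. With only the N-glycan and sgNT sums in the fit, edgeR called 12 of 150 member tests (0.133% of all tests) and DESeq2 16 of 165 (0.122% of all tests). With at least 5 guide UMIs per cell only Sdf2l1 with Dpm2 guides was called (0.86, edgeR adjusted p = 0.041), and without anti-PD-1 replicate 3 only Sdf2l1 and Pdia6 with Alg12 guides were (0.66 and 0.68, edgeR adjusted p = 0.025 and 0.040), where 0.013% and 0.0107% of all tests were called. Without that library, Dpm2 rested on 2 libraries.

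Single guides of the 2 sets mostly lay above sgNT, for 25, 30 and 21 of the 33 genes with Alg12 guides 1 to 3 and for 28, 29 and 24 with Dpm2 guides 1 to 3. Exceptions included the co-chaperones Dnajb9 (-0.57, from 3 UMIs) and Dnajb11 (-0.13) with Alg12 guide 3, the Alg12 guide with the fewest cells. For Sdf2l1, the log2 ratio of UMIs observed to UMIs expected from sgNT cells was 0.69, 0.64 and 0.41 with Alg12 guides 1 to 3 (83, 101 and 45 cells) and 0.99, 0.77 and 0.79 with Dpm2 guides 1 to 3 (24, 30 and 93 cells). For Pdia6 the ratios were 0.44, 0.86 and 0.55 with the Alg12 guides and 0.81, 0.67 and 0.70 with the Dpm2 guides. For Hspa5 they were 0.48, 0.54 and 0.40 with the Alg12 guides and 0.52, 0.57 and 0.30 with the Dpm2 guides. Pdia3 with Alg12 guide 3 had 0.07.

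Among all 83 targets, ranked by the median over the 33 genes of each target's log2 ratio to sgNT, Dpm2 was first (0.25) and Alg12 second (0.25), followed by Nsd1, a histone methyltransferase, at 0.12. Man1b1, Mgat2 and Man1a2 held ranks 10, 12 and 72. These ranks are a description, since every target is read against the same sgNT cells. For Hspa5, Alg12 ranked first (0.47) and Dpm2 second (0.44), followed by Dgkz at 0.25.

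**Figure D3:**
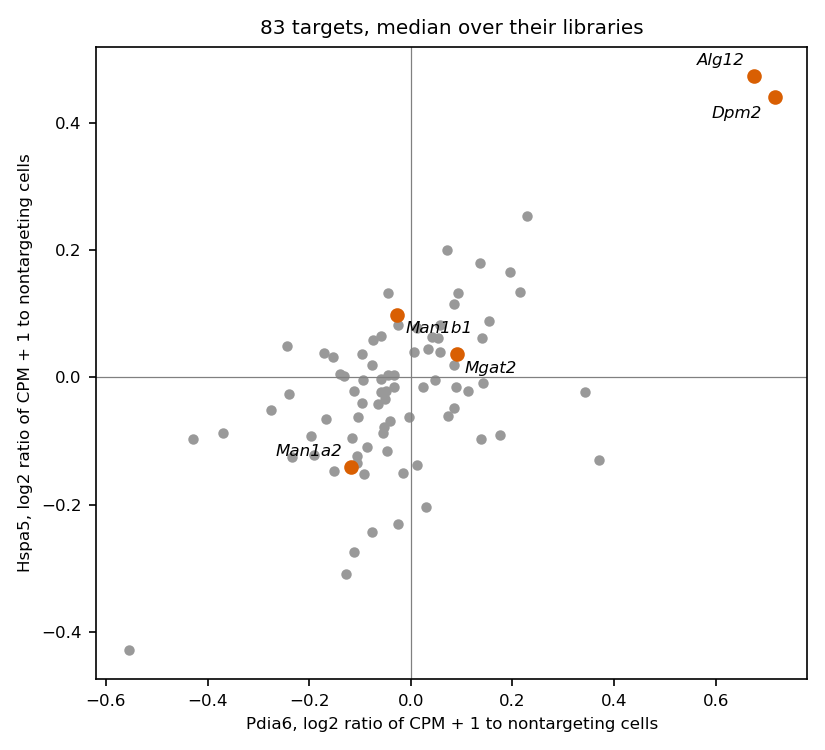
Log2 ratio of CPM (plus 1 CPM) to sgNT cells for Pdia6 (x axis) and Hspa5 (y axis), 1 point for each of 83 targets, as the median over the libraries with a sum. The 5 N-glycan targets are orange, with Alg12 and Dpm2 at the upper right of all targets and Man1b1, Man1a2 and Mgat2 among the rest (grey).

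Cells were also grouped by expression into clusters, which are described with the T cell states, and the shares of cells in each are given here pooled over libraries, without a test. Of sgNT cells, 33.6% were in the replication histone-like cluster and 35.3% in the granzyme C high-like cluster, against 29.7% and 34.9% with Alg12 guides and 49.7% and 27.2% with Dpm2 guides. The precursor exhausted-like cluster held 4.99% of sgNT cells, 7.86% of cells with Alg12 guides and 2.72% of those with Dpm2 guides, and the effector memory-like cluster 3.31%, 6.99% and 1.36%. Libraries went both ways, with the Alg12 share of the precursor exhausted-like cluster above sgNT in anti-PD-1 replicate 1 and IgG (13.3% against 4.67%, and 11.6% against 6.09%), below it in replicate 2 (3.23% against 5.91%) and level in replicate 3 (2.74% against 2.75%). The Dpm2 share of the granzyme C high-like cluster was below sgNT in replicate 3 and IgG (31.9% against 47.2%, and 21.5% against 31.9%) but not in replicate 2 (30.8% against 29.3%) or in the 8 cells of replicate 1 (50% against 29.0%). Cells holding at least 10 UMIs of other types' markers were 0.894% of sgNT cells and 1.75% of cells with Alg12 guides. With Dpm2 guides they were 0% (0 of 147, which allows a share of up to 2.04%). Within the granzyme C high-like cluster, Pdia6 was 0.44 above its sgNT expectation on the log2 scale with Alg12 guides and 0.82 with Dpm2 guides, and within the replication histone-like cluster 0.58 and 0.52. Hspa5 gave 0.34 and 0.93 in the first of these clusters and 0.62 and 0.34 in the second, and Sdf2l1 0.36 and 1.10 in the first and 0.52 and 0.66 in the second. Over all kept cells Sdf2l1 was itself higher in the replication histone-like cluster, by a median log2 ratio of 0.52 (0.26 to 0.68 over libraries), the cluster that held the larger share of cells with Dpm2 guides. With 1 sum per target, library and cluster and both as a block, an alternative chosen after seeing the data, 12 of 135 member tests were called, all higher, against 0.105% of all tests, but Alg12 lost Sdf2l1 (0.48, edgeR adjusted p = 0.072) and Sec61b (0.24, edgeR adjusted p = 0.13). Cluster sums of 1 target and library are not replicates, so these p-values are too small and the count of 12 is not added support. Median UMIs per cell were higher with Dpm2 guides than in sgNT cells of the same library (24167 against 17082 in anti-PD-1 replicate 2, 14582 against 12446 in replicate 3 and 8396 against 6407 in IgG), and lay on both sides of sgNT with Alg12 guides. The part of depth in these results was not tested.

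Creld2, a disulfide isomerase-like factor of the same response, is the head-to-head neighbour of Alg12: in GRCm38 the starts of the genes lie 328 bases apart on chr15, and the Creld2 ERSE lies between them. The Alg12 guides cut 3735 to 8159 bases from the start of Creld2. Creld2 measured 56.9, 65.9, 50.7 and 51.6 CPM in sgNT cells and 61.2, 68.8, 75.9 and 37.4 CPM with Alg12 guides, a log2 fold change of 0.16 ± 0.13 (edgeR adjusted p = 1.0), and the groups overlapped.

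The next question was in which T cell states the genes were high. Cells were clustered after the study's workflow with the 33 genes and the other pathway genes left out of the clustering genes, and 6 clusters held at least 20 cells in each library. Cluster 2 (3054 cells), with Xcl1, Ifng, Crtam, Ccl3 and Ccl4 among its leading genes, held the highest levels of the group: summed CPM over the 33 genes was 5901, 6085, 5809 and 5631 there in anti-PD-1 replicates 1 to 3 and IgG, against 5161, 5317, 5134 and 4906 over all cells. Of its first 10 genes, 4 were markers of the effector list, but the first, Xcl1, stands on the precursor exhausted list, so the cluster was left without a name. Cluster 4 (1253 cells), precursor exhausted-like with Tcf7, Ccr7, Slamf6 and Id3 among its leading genes, held 4040, 4525, 4152 and 3374 CPM, the lowest of the 6 clusters in 3 of 4 libraries (in anti-PD-1 replicate 2 cluster 5 was lower, at 4376 CPM). The ranges of clusters 2 and 4 and of all cells do not overlap. Clusters are made from the same cells, so no test applies, and a gene was called past the fold when its CPM differed from that of all other cells by over 1.5-fold in the same direction in all 4 libraries.

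Chaperones and co-chaperones made up the larger share of the difference in cluster 2, with 2957, 3050, 2824 and 2778 summed CPM there against 2446, 2520, 2308 and 2270 over all cells. In this cluster Hspa5 measured 692, 725, 798 and 815 CPM, a median log2 ratio to the other cells of 0.75 (0.72 to 0.77 over libraries). Hyou1, a large HSP70-like chaperone and exchange factor, measured 47.8, 45.1, 32.4 and 33.4 CPM (median log2 ratio 1.03), and Pdia6 measured 276, 310, 284 and 281 CPM (0.64). These 3 of 33 genes were higher past the fold, against 5.34% of all genes in that cluster. The sensor PERK (Eif2ak3) was lower (5.64, 5.55, 5.29 and 5.45 CPM, median log2 ratio -0.89), as was Edem1, which delivers misfolded glycoproteins to degradation (34.0, 28.7, 27.8 and 26.2 CPM, -0.67). These 2 of 33 compare with 12.4% of all genes lower.

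Genes of neighbouring pathways also passed the fold in cluster 2. Of 30 ATF4 targets with enough UMIs, 7 were higher and none lower past the fold, and of 19 cytosolic and mitochondrial heat shock genes 6 were higher and 2 lower. Of 17 other regulators of the unfolded protein response 1 was higher. In this cluster 5.34% of all genes were higher and 12.4% lower. Of the other ER folding and redox genes 1 was higher (Fkbp11) and 2 lower (Prdx4 and Qsox1), and of the N-glycan genes 1 was higher and 2 lower. Fkbp11, a secretory pathway prolyl isomerase, had the highest median log2 ratio among the genes of the other pathway lists past the fold (2.03), whereas Hspa1a and Hspa1b, the inducible cytosolic HSP70s, were lower (-1.74 and -1.70).

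In the precursor exhausted-like cluster 4, 3 of 33 genes were lower past the fold, against 4.96% of all genes, and none was higher. Hsp90b1 measured 335, 394, 355 and 255 CPM (median log2 ratio -0.82), Hyou1 14.7, 11.2, 10.3 and 11.97 CPM (-0.88) and Ero1a 31.9, 29.0, 44.8 and 35.4 CPM (-0.98). The 33 genes had a median log2 ratio of -0.31 there, against -0.03 over all genes. Of 30 ATF4 targets 5 were lower, among them the proline synthesis gene Pycr1 (-1.95) and the amino acid transporter gene Slc7a5 (-1.73). Cells of this cluster held a median of 0.847 times their library's median UMIs.

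Ero1a, which reoxidises the disulfide isomerases and is also a known hypoxia target, was the only one of the 33 past the fold in the granzyme C high-like cluster 0 (76.8, 80.5, 114 and 112 CPM, median log2 ratio 0.77, where 1.89% of all genes were higher), and among the lowest in the effector memory-like cluster 5 (25.6, 35.5, 27.7 and 31.2 CPM, -1.24). In cluster 5 (908 cells, Klf2 and S1pr1 among its leading genes), Hyou1 was the other gene past the fold (-0.76), 2 of 33 against 4.99% of all genes lower. In the replication histone-like cluster 1 and the proliferating G2/M-like cluster 3, 0 of 33 genes passed the fold in either direction, where 5.40% and 1.49% of all genes were higher and 1.60% and 1.34% lower. At a 2-fold limit none of the 33 genes passed in any of the 6 clusters, where 3.68% of all pairs of gene and cluster did, and at 1.5-fold 11 of 198 member pairs passed against 8.85% of all pairs.

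**Figure D4:**
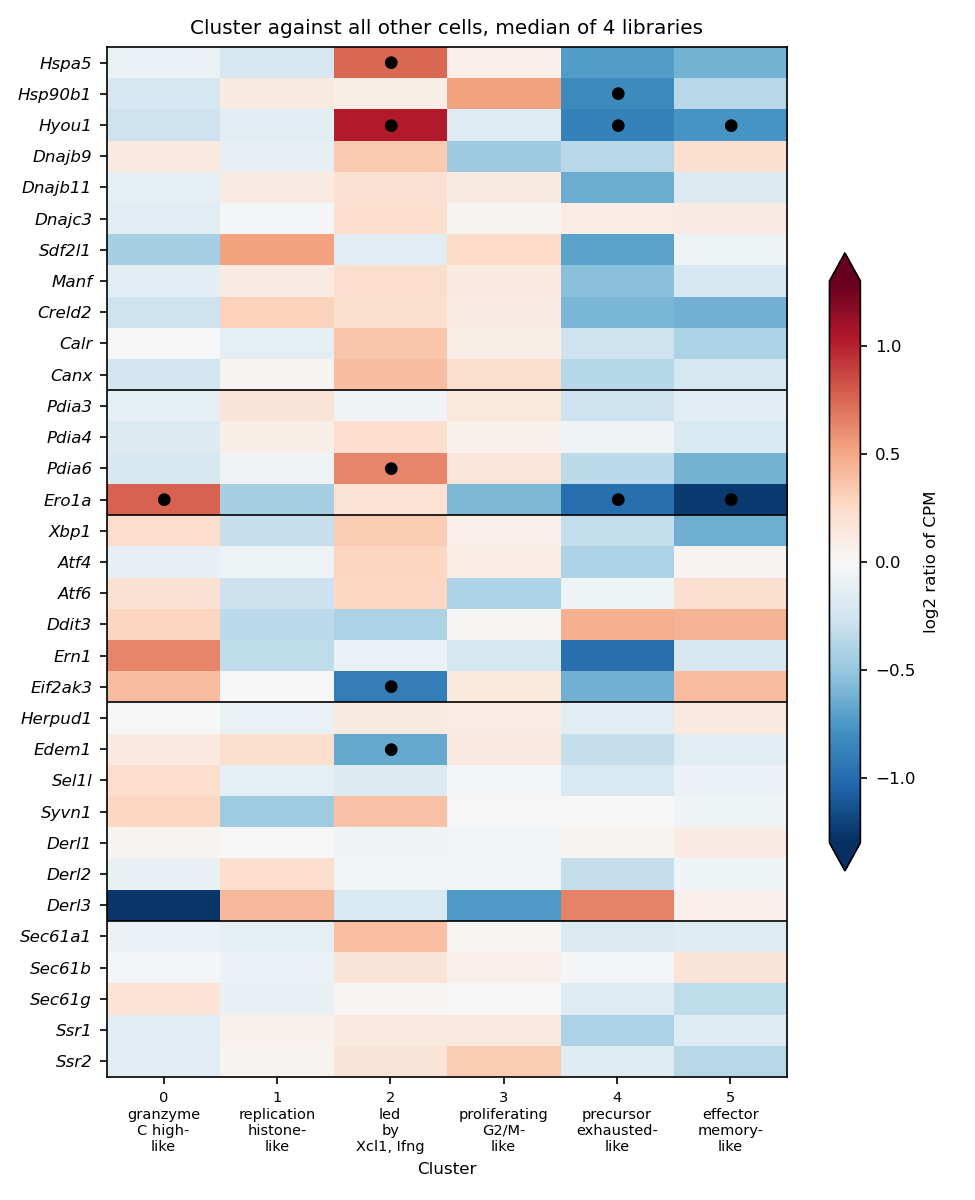
Median over 4 libraries of the log2 ratio of CPM in a cluster to CPM in all other cells, for 33 genes (rows, grouped by role) and 6 clusters (columns). Black dots mark the 11 pairs past 1.5-fold in all 4 libraries, with Hspa5, Hyou1 and Pdia6 high in cluster 2 and Hsp90b1, Hyou1 and Ero1a low in cluster 4.

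Across single cells, the 3 genes whose levels followed Hspa5 most closely were luminal folding genes, and 4 of the first 20 genes were members. Of 5801 genes ranked by the median over libraries of the within-library correlation with Hspa5, Hsp90b1 came first (median r = 0.39, 0.26 to 0.43 over libraries), followed by Pdia6 (0.38), Calr (0.37) and, at rank 7, Manf (0.29), against a median of 0.02 over all ranked genes. Canx, Pdia3, Creld2 and Dnajb11 held ranks 27, 28, 39 and 40. Members could make up no more than 33 of the 5801 ranked genes, and Dnajb9, Ddit3, Ern1, Eif2ak3, Syvn1 and Derl3 were not ranked. The other 16 of the first 20 were not members, and Ncl (0.32), which encodes the nucleolar protein nucleolin, Hspd1 (0.31), a mitochondrial chaperonin, and Hsp90aa1 (0.31), a cytosolic HSP90, held ranks 4, 5 and 6. Edem1 (rank 3233, r = 0.01) and Atf6 (rank 2260, r = 0.03) lay near the middle. Cells of a library share its depth and its mix of states, so these values are a description.

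Anti-PD-1 was compared with IgG over all kept cells. No member passed the test (0 of 33, with 0% of 13810 genes called by edgeR and 5 genes, no member among them, by DESeq2). Only Sec61g, a small subunit of the translocation channel, had an unadjusted p under 0.05, as did 282 genes in all. Sec61g measured 640, 663 and 651 CPM in the anti-PD-1 libraries against 515 CPM in the IgG library, which gave a log2 difference of 0.35 ± 0.12 (edgeR adjusted p = 0.987). The spread used in this test came from the anti-PD-1 libraries alone, since IgG had a single library.

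The anti-PD-1 libraries differed among themselves. For 22 of the 33 genes, replicate 3 lay nearer to IgG than to the mean of replicates 1 and 2. The same count was not made over all genes, so it does not set these genes apart from others. Calr measured 486, 476 and 371 CPM in the anti-PD-1 libraries against 372 CPM in IgG, Sdf2l1 131, 139 and 101 against 101 CPM, and Manf 272, 293 and 223 against 225 CPM. Hyou1 measured 26.5, 25.5 and 19.2 CPM against 18.7 CPM, and Dnajb9, the HSPA5 co-chaperone ERdj4, 13.7, 13.4 and 9.26 CPM against 8.04 CPM. Atf4 (85.9, 79.6 and 64.9 against 64.5 CPM) and Sec61a1 (60.6, 54.9 and 42.6 against 43.6 CPM) showed the same order. Ero1a went the other way, with 57.7 and 57.8 CPM in replicates 1 and 2, 83.6 CPM in replicate 3 and 75.7 CPM in IgG.

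Without anti-PD-1 replicate 3, 9 of 33 genes were called (8 higher, 1 lower), but so were 24.9% of all genes. Replicate 3 and IgG each have a name stem of their own, so the labels give no batch that holds both treatments. The study's methods name 2 batches, without saying which libraries each held. With a term that set replicates 1 and 2 against replicate 3 and IgG, a grouping that the labels do not state, 0 of 33 were called against 2.05% of all genes, and the fold changes of 7 genes reversed in sign (Calr, Manf, Sec61a1, Pdia3, Ero1a, Xbp1 and Syvn1). With 1 sum per cluster and library and cluster as a term, 9 of 32 tested genes were higher against 15.4% of all genes in either direction, and since the sums of a library are not replicates these p-values are too small.

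**Figure D5:**
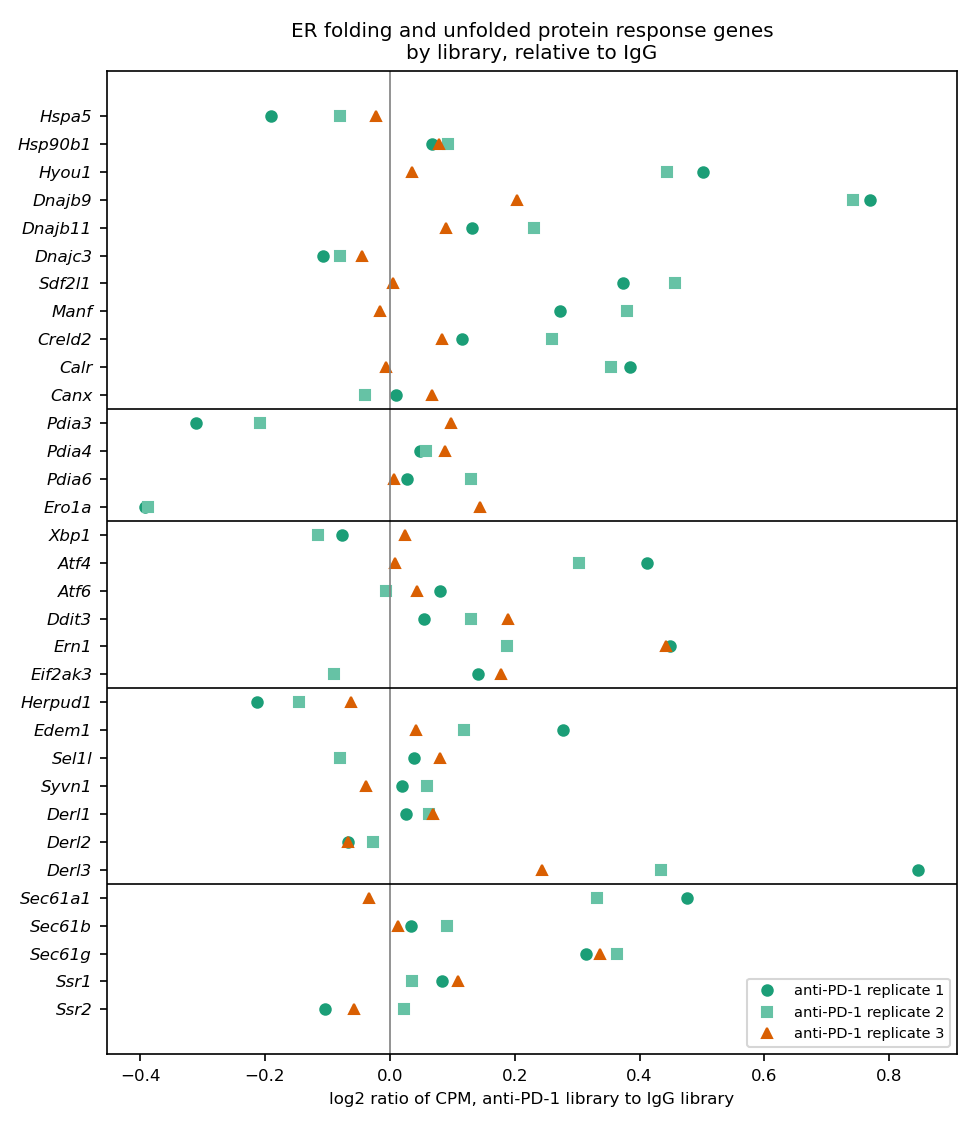
Log2 ratio of CPM in each anti-PD-1 library to the IgG library for the 33 genes, grouped by role. For Calr, Manf, Sdf2l1 and Hyou1, replicates 1 and 2 lie to the right while replicate 3 lies close to 0, and for Sec61g all 3 libraries lie between 0.31 and 0.36.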

How the data were processed

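CROP-seq (3′ single-cell RNA-seq with guide capture) was analysed for 4 libraries of sorted OT-I T cells, 3 from anti-PD-1-treated and 1 from IgG-treated mice, with the treatment taken from the labels. Per the labels and the study's methods, the authors aligned reads to mm10 with Cell Ranger 3.1.0, and the deposited values are UMI counts per gene and barcode, with no normalization, beside the authors' guide calls per cell. The annotation release was not given in the sources used here. Barcodes with exactly 1 guide were kept when log10 UMIs lay within 3 median absolute deviations of the library's median and mitochondrial UMIs were at most 10%. No doublet caller was run, since barcodes with several guides were already left out. Cells holding at least 10 UMIs of other cell types' markers were left out in an alternative.

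The 33 genes, the role lists and the other pathway lists were chosen with earlier results of these data known. Counts were summed per library, or per target and library (at least 10 cells), and tested with edgeR 4.0.16 in R 4.3.3 (filterByExpr, TMM, quasi-likelihood, Benjamini-Hochberg over all genes, threshold 0.05). The treatment fit estimated dispersions per gene with estimateDisp. The guide fit, with all 83 targets and library as a block, used glmQLFit with legacy = FALSE, in which the dispersion comes from the most abundant genes, since estimateDisp was too slow at that size. All 33 genes passed the filter on low counts in both. DESeq2 1.42.0 was an alternative. Clusters came from Seurat 5.3.0 (CCA integration, 2000 variable genes, 15 components, resolution 0.3, with depth, mitochondrial share and cell cycle difference regressed out, as in the study's workflow) with the 33 genes and pathway lists removed from the variable genes. A cluster was named only from marker lists. Leading genes of a cluster were ranked by fold with 10 CPM added. Levels per target are given with 1 CPM added in log2 ratios. Tested on simulated counts with 196 changed genes (log2 change of 1), the treatment fit recovered 33.7% with 6 false calls among 13552 genes, and the Alg12 contrast recovered 68.9% of 183 with 13 false calls among 9245 genes.

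Named genes were the 33, the targeted genes and, in each comparison, at most 3 other pathway genes with the largest fold among those past the threshold. Rpl10 and the leading genes of clusters and correlations were named after their values were seen. Alternatives covered the tool, the filter, each library left out, a grouping of libraries that the labels do not state, other cell types, depth, state composition, guide UMIs, cells per sum and clustering settings. Guide sequences came from the study's library table and were placed in GENCODE M21 exons (GRCm38, the build of the files), and promoters came from RefSeq.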

Additional observations from a re-analysis of the deposited data

Results flagged for a closer look

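A gene was picked out here where a test of the difference between 2 sets of guides passed the edgeR adjusted threshold. No group of this study held between 4 and 10 samples, so single libraries were not screened.

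For 7 of the 33 genes, the fold change with Alg12 and Dpm2 guides exceeded that with Man1b1, Man1a2 and Mgat2 guides past the threshold. Of all genes, 0.13% were called in either direction. The grouping was made after the values for each target were seen, so these calls are not independent support. The differences on the log2 scale were 0.71 for Sdf2l1, 0.64 for Pdia6, 0.44 for Manf, 0.42 for Hspa5, 0.39 for Pdia3, 0.33 for Hsp90b1 and 0.21 for Sec61b. None of the 6 sensors and transcription factors was among them. Of those 6, 5 had positive differences, at a median of 0.21, against 0.23 over the 33 genes. Beside the main fit, Pdia6 and Sdf2l1 were called in all 11 alternative fits of this contrast. Pdia3 and Manf were called in 10, Hsp90b1 in 9, Hspa5 in 8 and Sec61b in 7. These fits share the grouping and draw on the same cells, so repeated calls are not added support.

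For 3 of the 33 genes, the fold change averaged over the 5 N-glycan targets exceeded that averaged over the 7 GPI anchor targets past the threshold. Of all genes, 0.14% were called in either direction. The differences were 0.32 for Hspa5, 0.31 for Hsp90b1 and 0.24 for Sec61b, where the median of all genes tested was 0.11.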

How the results depend on the processing

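Anti-PD-1 against IgG called 0 to 9 members when 1 library was left out (9 without anti-PD-1 replicate 3) and 9 with cluster as a term. Without that library 3316 genes were called in all, with cluster as a term 1733, with the term for replicates 1 and 2 against replicate 3 and IgG, a grouping the labels do not state, 283 and by DESeq2 5, against 0 in the reported fit. With that term the log2 fold changes of Calr, Manf and Sec61a1 turned to -0.0081, -0.017 and -0.035 and those of Pdia3 and Ero1a to 0.10 and 0.14, Xbp1 and Syvn1 reversed too (0.02 and -0.04), and the cause was not tested. Member tests called over the 5 N-glycan targets were 2 to 6 when 1 library was left out (2 without anti-PD-1 replicate 3), 1 with at least 5 guide UMIs, 10 with at least 20 cells per sum, 12 with only N-glycan and sgNT sums, 12 with library and cluster as a block (sums of 1 library and target that are not replicates, so its p-values are too small), and 16 by DESeq2 with only N-glycan and sgNT sums, against 6. Over all genes these fits called 5 to 9, 5, 16, 49, 30 and 61 tests, against 10. For the mean of the 5 targets, 1 member was called with that block and 2 by DESeq2 with only N-glycan and sgNT sums (0 by edgeR on those sums), against 0. For the contrast of Alg12 and Dpm2 with the other 3 targets, 4 to 6 were called when 1 library was left out and 4 with at least 5 guide UMIs, against 7 (over all genes 5 to 13 and 4, against 13). Of the pairs of member and cluster, 11 to 14 passed the fold when 1 library was left out and 0 at 2-fold, against 11. Of all pairs of gene and cluster, 10.5% to 10.9% and 3.68% passed in these settings, against 8.85%. At resolution 0.5, 9 of 297 member pairs passed, and with nothing regressed out 8 of 231. With the members and pathway genes among the variable genes, 10 of 198 passed. These compare with 8.09%, 9.6% and 8.81% of all pairs. For single members, alternatives were followed for 12 genes in the treatment comparison and for the guide values called or near the threshold: of these, 286 kept their direction and side of the threshold, 37 came to pass it, 25 no longer passed it and 5 reversed. No paired analysis was possible because the treatment groups share fewer than 2 replicate numbers; guide contrasts already had library as a block. A single IgG library, 147 to 419 cells per target and 6329 UMIs per cell at the median in IgG limit what could be detected.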

Other observations

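Summed over roles, the genes differed in how evenly they were spread over clusters. Degradation genes summed to 213 to 216 CPM in 3 of 4 libraries of cluster 2 (207 CPM in IgG) and to 228 to 231 CPM over all cells, the one role that was lower there than over all cells in each library. Edem1 had the largest drop (34.0, 28.7, 27.8 and 26.2 CPM, against 49.1, 44.0, 41.7 and 40.5 CPM over all cells). Syvn1 and Herpud1 were higher in cluster 2 (median log2 ratios 0.38 and 0.12). Translocon genes summed to 1734, 1784, 1672 and 1572 CPM in cluster 2 (anti-PD-1 replicates 1 to 3, then IgG) and to 1608, 1662, 1598 and 1458 CPM over all cells. In the proliferating G2/M-like cluster 3, chaperones and co-chaperones summed to 2725, 2866, 2721 and 2597 CPM, above all cells in each library although no single member passed the fold there. Hsp90b1 had the largest excess (778, 823, 890 and 803 CPM, against 597, 607, 601 and 569 CPM over all cells). Dnajb9 and Hyou1 were lower in cluster 3 (median log2 ratios -0.47 and -0.17).

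Guides against 4 other genes, Mgat4d, B3gnt2, B3gnt4 and St3gal4, were read apart from the core N-glycan targets. Their products belong to the families that branch or extend glycans. Each of these guide sets called 0 of 33 members by edgeR, with 0, 0, 1 and 0 at an unadjusted p under 0.05. Over all 9980 genes 2, 0, 16 and 2 were called and 423, 322, 421 and 381 had an unadjusted p under 0.05. With B3gnt2 guides 25 of 33 members had positive values, at a median of 0.04. With B3gnt4 guides the median over the 33 genes was -0.01.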
